A study of Mus musculus with 10 samples.

Results

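Genes named Zfp followed by a number are the mouse genes first annotated as zinc finger proteins. The authors' deposited table lists 295 of them among 12791 genes. The 144 described here had a mean level of at least 3 log2 CPM (CPM being counts scaled to library size) in each of the 2 comparisons of the table, so they were selected on their mean levels and not on their fold changes. Just inside this limit, with no test, lay Zfp526 at 3.003 log2 CPM, Zfp949 at 3.011 and Zfp866 at 3.017, each in the comparison where its mean was lower. Just outside it lay Zfp516 at 2.993, Zfp952 at 2.986 and Zfp53 at 2.974 log2 CPM.

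The 10 libraries were made from lineage-negative, c-Kit-positive, Sca-1-negative cells of C57BL/6 bone marrow, a sort that holds committed myeloid and erythroid progenitors. Per the labels, 3 libraries came from KDR-positive cells of tumor-bearing mice at week 4, 4 from KDR-negative cells of such mice at week 4, and 3 from naive mice without a tumor. KDR is the VEGF receptor encoded by Kdr. The series' design text describes mice with a GFP reporter knocked into Kdr that received GL261 cells, a mouse glioma line, and RNA from about 20000 GFP-positive cells a sample, without saying how the KDR-negative cells were gated. The reporter marks cells through the Kdr locus, so the gate depends on its expression, and the labels do not say whether naive mice carried it or whether libraries came from separate mice. The p-values may therefore measure technical spread alone.

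The header of the table does not name the groups of either comparison. They are called here the first and the second comparison, each with a numerator and a denominator group, and a positive fold change means a higher level in the numerator group. Group levels, worked out from each gene's mean and fold change, showed that the denominator group was shared: its levels differed between the comparisons by a median of 0.0023 log2, against 0.0552 log2 for the next closest pairing of sides, each pairing being taken at the group weights that bring its sides closest. The table gives no value per library, so depth, standard deviations and values of single samples cannot be given. In sorted bulk RNA, fewer cells of a type and less RNA per cell cannot be told apart.

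The sort was checked against fixed markers. Kit had a derived level of 38.8 CPM in the numerator group of the first comparison, 60.3 CPM in that of the second and 58.7 CPM in the shared denominator group. Kdr had 2.24, 0.379 and 0.875 CPM in these groups in the same order, and Ly6a, which encodes Sca-1, had 37.2, 27.2 and 27.6 CPM, so the marker that the sort selects against was present in all groups and not near 0. None of the 3 genes passed the threshold in the authors' deposited table. Macrophage markers, which the sort should leave out, were all called higher in the numerator group of the first comparison (13 of the 13 found, with a summed level of 4975 CPM, against 161 CPM in the numerator group of the second and 269 CPM in the denominator group). Megakaryocyte markers did likewise (6 of 6, with 1469, 110 and 160 CPM summed), while 5 of 6 B cell precursor markers were called lower (97.2, 339 and 410 CPM summed). All 3 T and NK cell markers found were called lower (3.04, 21.3 and 31.2 CPM summed), and of 4 erythroid markers 2 were called higher and 1 lower (16196, 1127 and 1134 CPM summed, of which Hba-a1 made up 15650, 945 and 992 CPM). In the second comparison 1 of these genes was called, the macrophage marker C1qa, which the authors' deposited table puts lower (log2 fold change -2.41). Levels derived from log2 values cannot be 0, so they do not show whether each marker was detected in each group. Among the low ones, Klrd1 came to 0.155 CPM in the numerator group of the first comparison. Mertk came to 0.226 CPM in that of the second. The part of these markers in the results below was not tested.

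Most Zfp proteins carry C2H2 zinc fingers, short loops held around a zinc ion by a pair of cysteines and a pair of histidines, which read DNA in tandem arrays. Many mouse members also have a KRAB domain, which recruits the corepressor Trim28 and with it the histone methyltransferase Setdb1 to silence transposable elements and nearby genes. A few, such as Zfp36, have CCCH fingers that bind mRNA instead.

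Of the 144 members, 143 were matched to a coding transcript of GENCODE M21 (all but Zfp783), 7 of them through the current name of an older symbol. A KRAB domain was found in 55, 74 others had at least 2 C2H2 fingers, and 14 had fewer than 2. The matched proteins held 1266 C2H2 fingers in all, with at least 10 in 56 members and the most, 30, in Zfp236. Coding stretches of single fingers of members that passed the threshold are shown next, with C2H2 fingers for Zfp433 and Zfp672 and a CCCH finger for Zfp36. Capitals mark the codons of the residues that bind zinc. The Zfp433 stretch covers residues 164 to 184 of a protein with 17 fingers, the Zfp672 stretch residues 232 to 252 of one with 13, and the Zfp36 stretch residues 101 to 120, the first of its 2 CCCH fingers.
Zfp433: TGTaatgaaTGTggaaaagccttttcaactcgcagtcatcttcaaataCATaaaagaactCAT
Zfp672: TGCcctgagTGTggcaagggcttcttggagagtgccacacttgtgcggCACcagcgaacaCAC
Zfp36: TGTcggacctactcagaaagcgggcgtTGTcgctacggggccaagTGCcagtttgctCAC

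The stretches of Zfp433 and Zfp672, of 63 bases each, were identical at 30 of 63 positions (47.6%). Both were found by the same spacing of cysteines and histidines, so their equal length and the matching places of these codons were set by the search. Most of the differing bases lie between these codons.

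The promoters of the 4 KRAB members that were called higher in the first comparison are shown next, since these genes were called in the same direction on the deposited scale. They run from 250 bases before to 50 bases after the start of the gene, 5′ to 3′ on the gene's strand, from RefSeq on GRCm38.p6. Capitals mark CCAAT (the CCAAT box) and CCGGAA (the core bound by ETS factors), each on either strand, so that they read ATTGG and TTCCGG on the other. Zfp433 lies on the plus strand at chr10:81704575-81704874, Zfp617 on the plus strand at chr8:71922575-71922874, Zfp932 on the plus strand at chr5:109996260-109996559 and Zfp825 on the minus strand at chr13:74493912-74494211.
Zfp433: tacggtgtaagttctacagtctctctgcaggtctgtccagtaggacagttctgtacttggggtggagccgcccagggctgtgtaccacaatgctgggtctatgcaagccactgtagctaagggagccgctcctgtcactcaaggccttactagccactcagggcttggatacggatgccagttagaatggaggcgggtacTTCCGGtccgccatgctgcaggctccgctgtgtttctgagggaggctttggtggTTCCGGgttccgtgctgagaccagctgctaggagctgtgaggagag
Zfp617: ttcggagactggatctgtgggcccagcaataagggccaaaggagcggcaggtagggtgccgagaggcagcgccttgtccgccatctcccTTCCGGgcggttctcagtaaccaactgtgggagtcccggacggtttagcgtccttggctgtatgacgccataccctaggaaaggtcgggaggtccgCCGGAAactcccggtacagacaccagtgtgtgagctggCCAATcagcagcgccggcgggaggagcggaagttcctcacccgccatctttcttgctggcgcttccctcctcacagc
Zfp932: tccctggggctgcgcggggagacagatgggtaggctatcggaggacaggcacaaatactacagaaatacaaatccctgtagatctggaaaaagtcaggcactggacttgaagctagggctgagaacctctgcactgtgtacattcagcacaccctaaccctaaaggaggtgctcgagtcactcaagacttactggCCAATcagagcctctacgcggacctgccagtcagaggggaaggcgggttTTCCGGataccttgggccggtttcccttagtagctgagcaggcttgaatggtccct
Zfp825: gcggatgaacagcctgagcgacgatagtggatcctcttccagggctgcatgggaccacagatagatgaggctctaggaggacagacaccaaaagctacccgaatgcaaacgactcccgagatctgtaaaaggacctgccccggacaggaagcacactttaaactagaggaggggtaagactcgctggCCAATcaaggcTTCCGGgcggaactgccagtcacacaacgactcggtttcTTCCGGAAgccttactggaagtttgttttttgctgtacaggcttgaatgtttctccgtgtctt

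Each of these 4 promoters held CCGGAA at least once, with 2 matches in Zfp433, 2 in Zfp617, 1 in Zfp932 and 3 in Zfp825, of which 2 overlap as a palindrome. CCAAT occurred once each in Zfp617, Zfp932 and Zfp825 and not in this window of Zfp433. A promoter was found for 117 members and for 6379 of the other genes at the level limit, and all 27025 promoters of the RefSeq table were searched too. CCGGAA was found in 35.9% of the member promoters, against 32.4% for the other genes at the limit and 15.2% of all promoters. The share was 41.7% for KRAB members and 7 of 9 (77.8%) for members called higher in the first comparison. These 9 were chosen by their fold change and the other genes at the limit were not. The share among other genes called higher was not counted, so no link with the direction can be read from it. CCAAT was found in 43.6% of the member promoters and in 54.2% of those of KRAB members, against 39.7% for the other genes at the limit and 37.9% of all. The median number of CpG dinucleotides was 17 in member promoters, against 22 for the other genes at the limit and 7 in all promoters. TATAAA occurred in 6.84% of member promoters, against 6.38% for the other genes at the limit and 14.2% of all. TGACGTCA, the cAMP response element, occurred in 3.42%, against 3.53% and 1.88%. The promoters of members were thus closer in these letters to those of other genes at the limit than to all promoters. These matches describe the letters in the windows and no binding was measured.

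In the first comparison of the authors' deposited table, 11 Zfp genes were called higher and 1 lower in the numerator group at an adjusted p under 0.05, which makes 8.33% of the members. Of all genes listed 22.3% were called, 18.8% higher and 3.49% lower. The members were chosen on mean levels of the same comparison, so these shares are a description. The median log2 fold change of the members in the authors' deposited table was -0.45, against -0.13 over all genes, with quartiles of -0.76 and 0.08 and a range from -1.64 (Zfp81) to 2.14 (Zfp433). Fold changes were above 0 for 39 members and below 0 for 105. At an unadjusted p under 0.05 there were 11 members higher and 17 lower. The macrophage and megakaryocyte markers described above rose in this same comparison, B cell precursor, T and NK cell markers fell, the summed erythroid markers were at 16196 CPM against 1134 CPM in the denominator group, and their part in the Zfp values was not tested.

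The direction of these values depends on the scale. The CPM of the numerator group summed over all genes was higher by 1.49 log2 in the first comparison, so these values have no fixed total. After recentring to equal totals, a shift that was not tested anew, only Zfp433 (0.65) and Zfp617 (0.25) of the 11 members called higher kept a log2 fold change above 0, and Zfp703 came to -0.01. Summed over the 144 members, the derived levels were 3028 CPM in the numerator group of the first comparison, 3008 CPM in that of the second and 3035 CPM in the denominator group. The summed level of the Zfp genes thus differed little between the groups, while that of the whole table did. This sum hides changes in opposite directions. In the same order of groups, the median member was at 13.3, 17 and 17.3 CPM. Members with fewer than 2 C2H2 fingers summed to 574, 395 and 390 CPM, KRAB members to 851, 821 and 839 CPM. The other C2H2 members summed to 1596, 1783 and 1796 CPM.

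**Figure D1:**
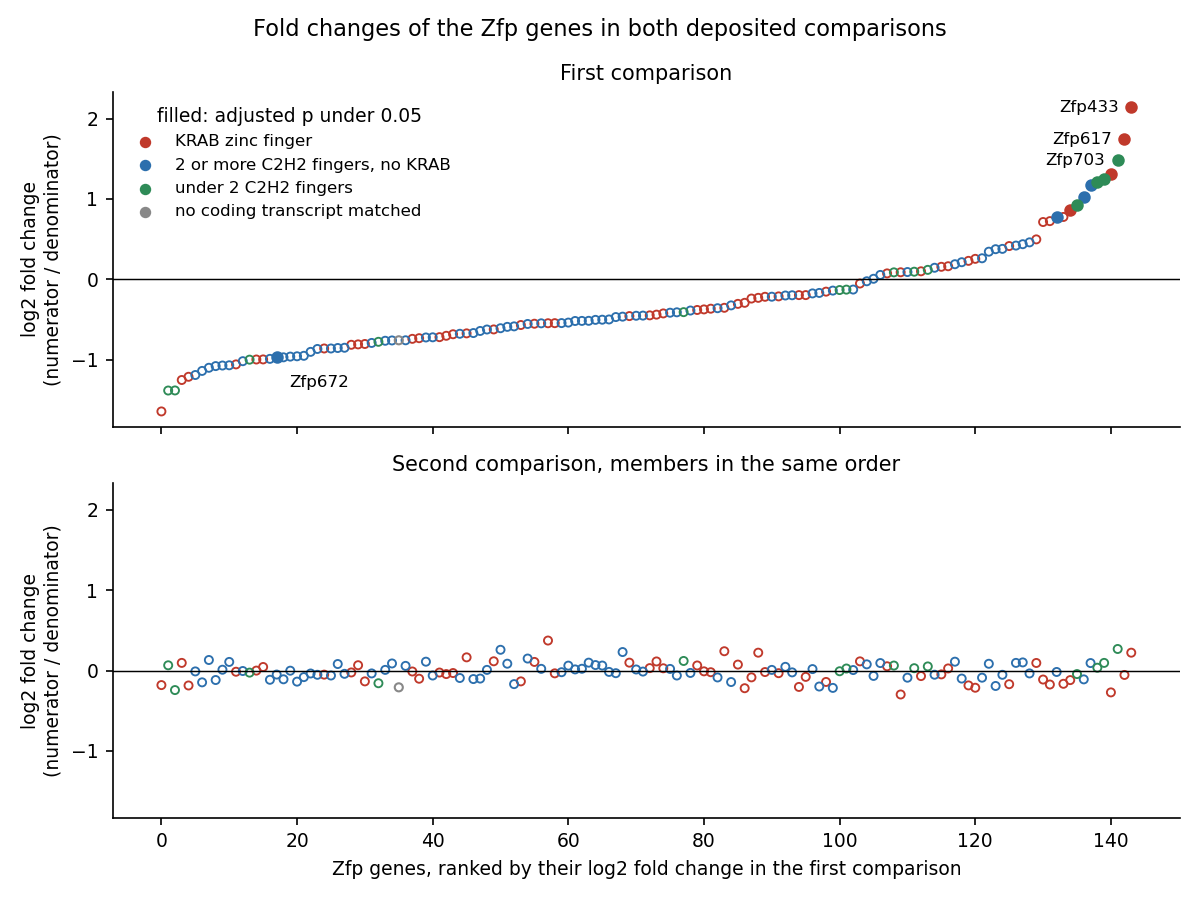
Log2 fold change (numerator over denominator group) of each of the 144 Zfp genes in the authors' deposited table, ranked by the first comparison (upper panel) and kept in that order for the second (lower panel); colours give the protein class and filled points have an adjusted p under 0.05. The first comparison runs from -1.64 to 2.14 with filled points mostly at the upper end, where 9 of the 11 fall below 0 after recentring to equal totals, and the second stays between -0.30 and 0.37.

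Zfp433 and Zfp617, both KRAB zinc finger genes, had the largest fold changes. Zfp433 had a derived level of 37.3 CPM in the numerator group of the first comparison, 9.73 CPM in that of the second and 8.40 CPM in the denominator group. The authors' deposited table gave it a log2 fold change of 2.14 at an adjusted p of 1.0e-05. Zfp617 had 56.9, 16.2 and 16.9 CPM in the same order of groups, a log2 fold change of 1.74 and an adjusted p of 9.6e-07 in the authors' deposited table. In both genes the numerator group of the first comparison stood apart and the other groups were close.

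The other KRAB members past the threshold were Zfp932 and Zfp825. Zfp932 had 113 CPM in the numerator group of the first comparison, 36.8 CPM in that of the second and 44.9 CPM in the denominator group, with a log2 fold change of 1.31 and an adjusted p of 3.2e-04 in the authors' deposited table. Zfp825 had 39.3, 19.7 and 21.5 CPM, a log2 fold change of 0.87 and an adjusted p of 0.0422 in the authors' deposited table. Both fell below 0 after recentring to equal totals, to -0.18 and -0.63 log2.

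The members called higher also included proteins with few or no C2H2 fingers. Zfp36, also called tristetraprolin, binds AU-rich elements and speeds the decay of cytokine mRNAs. Its derived level was 128 CPM in the numerator group of the first comparison, 56.9 CPM in that of the second and 53.5 CPM in the denominator group, and its log2 fold change of 1.25 had an adjusted p of 0.0011 in the authors' deposited table. Zfp706, a very short protein known in mouse embryonic stem cells for limiting Klf4, had 131, 57.5 and 56.5 CPM, a log2 fold change of 1.21 and an adjusted p of 4.0e-04 in the authors' deposited table. Zfp703, a transcriptional corepressor known from human luminal breast cancer, had 37.4, 16.1 and 13.4 CPM, a log2 fold change of 1.48 and an adjusted p of 0.0035 in the authors' deposited table. The nucleolar protein gene Zfp330 had 104, 52.8 and 54.8 CPM, a log2 fold change of 0.92 and an adjusted p of 0.0137 in the authors' deposited table. Each of these 4 proteins has fewer than 2 C2H2 fingers, and each gene was below 0 once totals were made equal.

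Among the C2H2 genes without a KRAB domain, 3 were called higher and 1 lower. Zfp161, now named Zbtb14, carries a BTB domain and is known as a repressor. It had 59.9 CPM in the numerator group of the first comparison, 28.2 CPM in that of the second and 26.5 CPM in the denominator group, with a log2 fold change of 1.18 and an adjusted p of 2.4e-04 in the authors' deposited table. Zfp384, whose human homologue is a fusion partner in acute lymphoblastic leukaemia, had 87.3, 39.7 and 42.9 CPM, a log2 fold change of 1.02 and an adjusted p of 5.0e-04 in the authors' deposited table. Zfp207, which loads the spindle checkpoint protein Bub3 onto kinetochores, had 144, 82.1 and 83.7 CPM, a log2 fold change of 0.77 and an adjusted p of 0.0411 in the authors' deposited table. These 3 also came to lie below 0 with equal totals.

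Zfp672 was the only member called lower. It had 19.1 CPM in the numerator group of the first comparison, 36.2 CPM in that of the second and 37.4 CPM in the denominator group. The authors' deposited table gave it a log2 fold change of -0.97 at an adjusted p of 0.0155, and it stayed below 0 under both recentred scales. Members with fold changes further below 0 did not pass. Zfp81 had a log2 fold change of -1.64 with an adjusted p of 0.0555 in the authors' deposited table and 4.20, 11.6 and 13.2 CPM in the 3 groups. Zfp608 and Zfp609, paralogues with a single C2H2 finger each, both had log2 fold changes of -1.38 with an adjusted p of 0.0696 in the authors' deposited table.

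**Figure D2:**
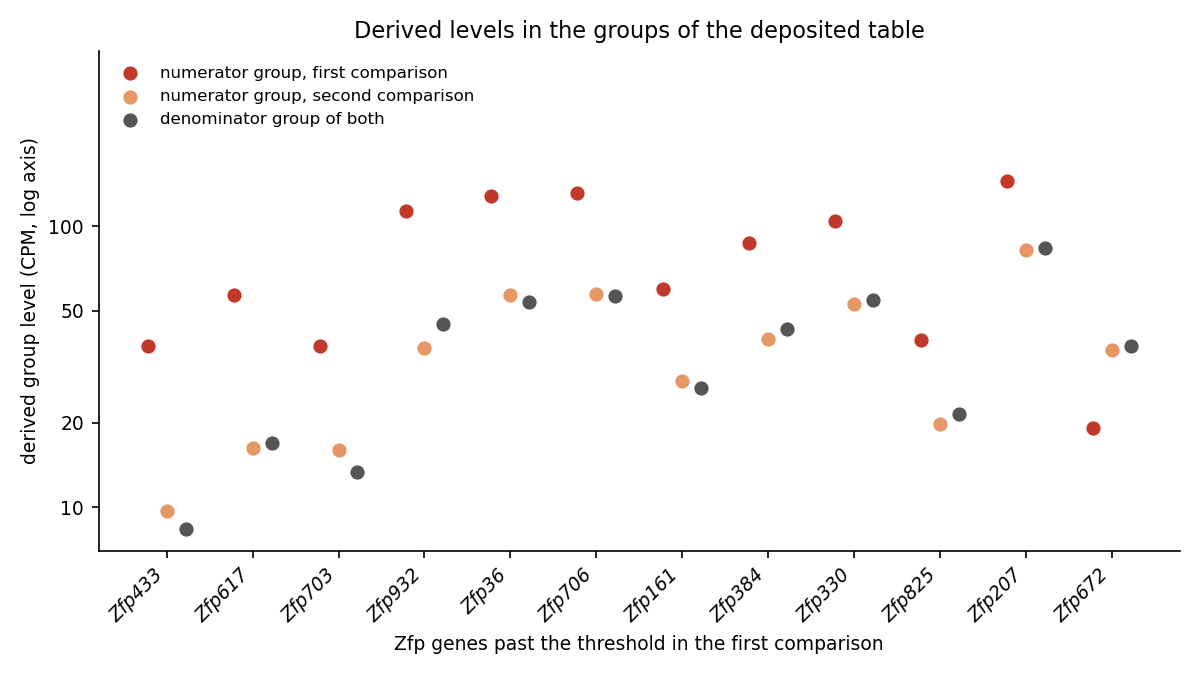
Derived level (CPM, log axis) of the 12 members past the threshold in the first comparison, in the numerator group of the first comparison, that of the second and the denominator group of both; each point is a group mean derived from the authors' deposited table, with no error available. For each gene the numerator group of the second comparison and the denominator group lie together, and the numerator group of the first comparison lies above them in 11 genes and below them in Zfp672; with equal totals it would lie above in Zfp433 and Zfp617 alone.

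Zfp genes were then compared with genes of like level, each member against the median of all other genes of the table within 0.5 log2 CPM of it. Genes under the limit, with the Zfp genes that it left out, could fall in this window. CPM is not divided by transcript length, so like level means a like share of the counts. The members' log2 fold changes in the first comparison differed from these medians by a median of -0.03, with quartiles of -0.32 and 0.36, and 68 members lay above and 76 below. The difference between the Zfp median of -0.45 and that of the other genes at the limit, -0.02, thus came down to -0.03 among genes of like level. Of the like-level genes 16.4% were called on average, against 8.33% of the members. Members had to reach the limit in both comparisons and the like-level genes did not, so these shares come from unlike selections.

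The values were then split by mean level. At 3 to 4 log2 CPM, 75 members had a median log2 fold change of -0.61 and none was called by the authors' adjusted p (10 had an unadjusted p under 0.05), against a median of -0.54 and 14.9% called among 2072 other genes. At 4 to 5 log2 CPM, the median was -0.45 for 49 members, of which 3 were called higher and 1 lower (8.16%), against -0.31 and 14.7% for 2794 others. At 5 to 6 log2 CPM, 14 members had a median of 0.15 with 2 called higher, against 0.13 and 18.4% for 2382 others. At 6 to 7 log2 CPM, all 6 members were called higher with a median of 1.11, against 0.77 and 52.7% for 1183 others. The share called was below that of the other genes up to 6 log2 CPM and above it from 6 to 7. These other genes were taken by their level in the first comparison alone, while members had to reach the limit in both. That rule left out Zfp429 and Zfp960, at 3.84 and 3.86 log2 CPM in the first comparison, and Zfp97 at 4.10 log2 CPM. All of these were called higher, so the shares of members called at 3 to 5 log2 CPM are lowered by the selection. Across genes, which are not independent, Spearman's rho of the fold change with the mean level was 0.49 for 143 members and 0.76 for 8506 other genes. The mean level contains the numerator group, so part of this relation is built in. With the level of the denominator group in its place, rho was 0.16 for the members and 0.53 for the other genes.

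**Figure D3:**
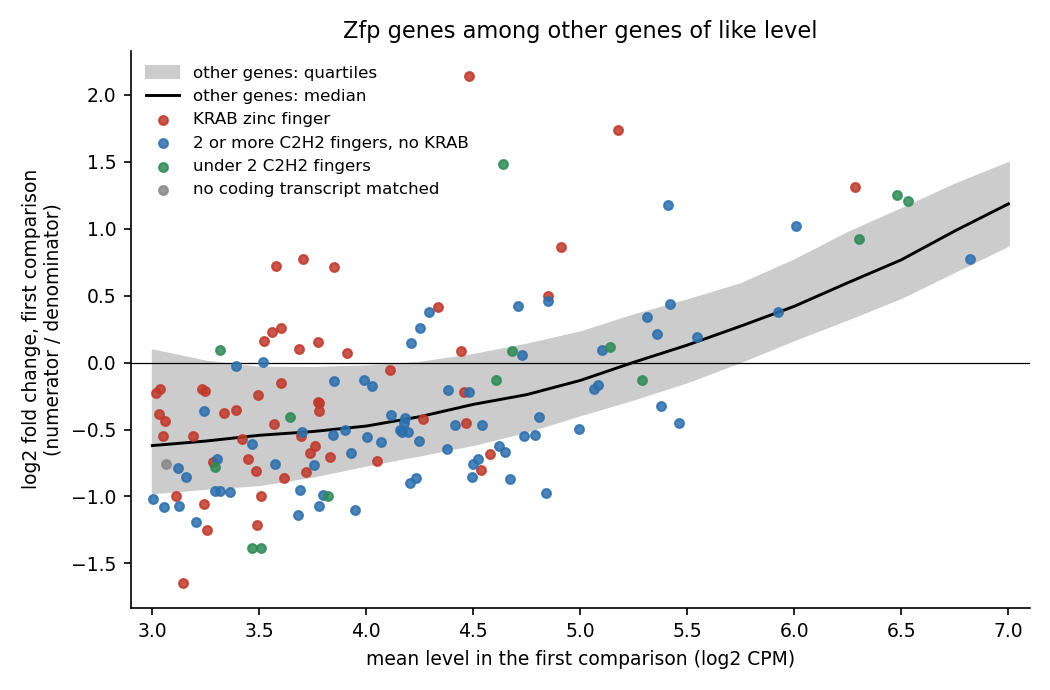
Log2 fold change in the first comparison against mean level (log2 CPM) for the 144 Zfp genes, coloured by protein class; the line is the median and the band the quartiles of the other genes within 0.5 log2 CPM. The line runs from -0.62 at 3 log2 CPM to 1.19 at 7 log2 CPM with members on either side of it, and KRAB genes make up several of the points above the band at low level; all values fall by 1.49 log2 if totals are made equal.

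The protein classes were set side by side. KRAB members had a median log2 fold change of -0.37 in the first comparison, the other C2H2 members -0.52 and those with fewer than 2 fingers -0.02. Set against genes of like level, the medians were 0.21 for the 55 KRAB members, -0.13 for the 74 other C2H2 members and 0.16 for the 14 with fewer than 2 fingers. By class, 4 KRAB members were called higher and none lower (7.27% called), 3 other C2H2 members higher and 1 lower (5.41%), and 4 of those with fewer than 2 fingers higher and none lower (28.6%), against 22.3% of all genes. Median transcript lengths were 3001 bases for KRAB members, 3892 for other C2H2 members and 3068 for those with fewer than 2 fingers. The 72 members with transcripts up to the median of 3299 bases had a median of -0.21 with 9 called higher and 1 lower. The 71 with the longer transcripts had a median of -0.61 with 2 called higher. Across genes, Spearman's rho of fold change and transcript length was -0.39 for the members and -0.41 for 8506 other genes, a relation of like strength outside the family.

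Zfp genes arose in part by repeated duplication, and reads of near-identical copies may not be assigned to 1 gene. For each transcript the share of its 32-base words that also occur in transcripts of other genes was counted. It was 0 for 47 members and over 30% for 10. All 4 KRAB members called higher were among these 10, with 96.5% for Zfp433, 71.4% for Zfp932, 46.1% for Zfp825 and 46.0% for Zfp617, so their levels are uncertain. The other 6, which were not called, were Zfp935 (100%), Zfp808, Zfp934, Zfp524, Zfp764 and Zfp959. Among the 46 KRAB members sharing at most 30% none was called by the authors' adjusted p (4 had an unadjusted p under 0.05), and their median against genes of like level was 0.07, against 0.79 for the 9 sharing more. Across the 55 KRAB members, Spearman's rho between the shared words and the fold change set against like level was 0.60, and across 88 other members it was 0.06. The points come from the same libraries and related members share words with each other, and the part of shared sequence in the fold changes was not tested.

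Of the 151 Zfp genes below the limit, 3 were called in the first comparison (1.99%), all higher, against 22.3% of all genes. The median level of the 151 was 2.03 log2 CPM, against 4.36 log2 CPM over all genes. Shares of such words were also counted for the 3 called genes: Zfp960 (88.7%), Zfp97 (87.4%) and Zfp429 (40.9%). At the cut of 30% used for the members, 76.4% of the 662 other genes at the limit that share more were called higher. Of the 7844 that share at most 30%, 16.6% were. Among members, 40% of the 10 sharing more were called higher, against 5.26% of the 133 sharing at most 30%. Of the 1307 other genes at the limit that share over 10% of their words, 66.0% were called higher, against 12.1% of the 4527 that share none. Set against genes of like level, their median fold changes were 0.23 and -0.08 log2, with a Spearman's rho of 0.21 across 8506 genes. Members called higher that share under 10% were Zfp36, Zfp161, Zfp703, Zfp706 and Zfp207.

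**Figure D4:**
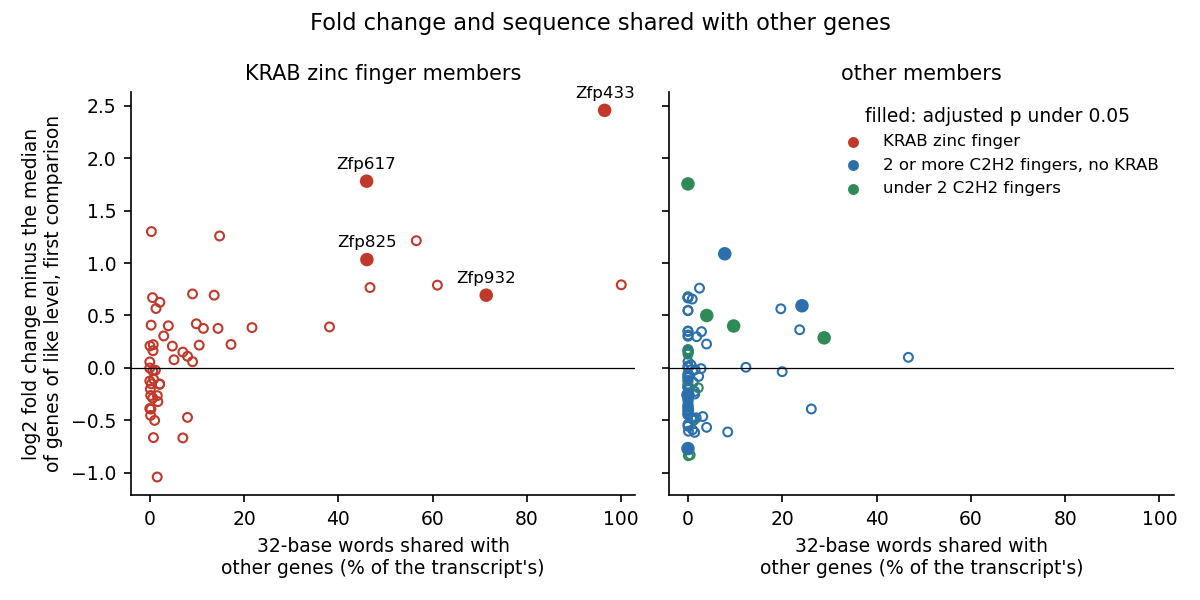
Log2 fold change in the first comparison minus the median of genes of like level, against the percentage of the transcript's 32-base words found in other genes, for KRAB members (left) and the other members (right); filled points have an adjusted p under 0.05. The 4 filled KRAB points lie at 46.0% to 96.5% and the 46 KRAB members at or under 30% are all open, while the filled points on the right lie at or under 28.9%; with equal totals the fold changes of all members called higher except Zfp433 and Zfp617 fall below 0.

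Of a list of 38 Zfp genes with known roles, 34 were in the authors' deposited table and 29 were members; the other 5, Zfp57, Zfp318, Zfp467, Zfp521 and Zfp708, lay below the limit. In the first comparison 6 of the 34 were called higher and none lower, and their median log2 fold change was -0.36. Of all genes 18.8% were called higher and 3.49% lower, so the list is not set apart by this count. The 6 are Zfp36, Zfp161, Zfp207, Zfp384, Zfp703 and Zfp706, described above. Besides Zfp36, the members of the list that act on RNA or ribosomes did not pass. Zfp598, the ubiquitin ligase that marks collided ribosomes, had 37.2 CPM in the numerator group of the first comparison, 40.5 CPM in that of the second and 40.8 CPM in the denominator group. Zfp622, which acts in maturation of the large ribosomal subunit, had 27.0, 27.8 and 26.0 CPM. The levels of each gene were close in all groups. Of their kind, Zfp106, an RNA-binding protein gene, had a log2 fold change of 0.19, Zfp593 0.09, Zfp326, a partner of nuclear mRNA particles, -0.13 and Zfp830 -0.41 in the authors' deposited table.

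Besides Zfp161 and Zfp384, the DNA-binding members of the list described next did not pass. Zfp143, an activator that binds many promoters, had a log2 fold change of -1.07 with an adjusted p of 0.116 in the authors' deposited table, and 8.72, 18.5 and 18.4 CPM in the 3 groups. Zfp410, known for activating the chromatin remodeller gene Chd4, had -0.62 with an adjusted p of 0.24, and Chd4 itself had 0.49 with an adjusted p of 0.264 in the authors' deposited table. Zfp281 had -0.02, Zfp148 -0.17, Zfp263 -0.47 and Zfp217 -0.72, none of them past the threshold in the authors' deposited table. Zfp91, a ubiquitin ligase of the non-canonical NF-kB pathway, had 0.44 with an adjusted p of 0.298 in the authors' deposited table. Other members of the list that did not pass were Zfp335 and Zfp687 with log2 fold changes of -0.52 each, Zfp592 with -0.64, Zfp644 with -0.76, the SUMO ligase gene Zfp451 with -0.95, Zfp292 with -0.96 and Zfp260 with -0.99 in the authors' deposited table. The 3 members of the list with a KRAB domain did not pass either. Zfp110 had -0.22 with an adjusted p of 0.768 in the authors' deposited table. Zfp809, which recognises the primer binding site of retroviruses, had -0.67 with an adjusted p of 0.436, and Zfp568, a repressor of a placental Igf2 transcript, had -1.25 with an adjusted p of 0.145 in the authors' deposited table.

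Proteins that KRAB members act through were taken from a list of 22 corepressor genes, all in the authors' deposited table. In the first comparison 7 were called higher and 2 lower, and the median log2 fold change was 0.44, while 22.3% of all genes were called. The median level of the list was 6.07 log2 CPM, and of the other genes at 5 to 6 and at 6 to 7 log2 CPM 18.4% and 52.7% were called. Trim28, the scaffold that binds KRAB domains, had a log2 fold change of 1.01 with an adjusted p of 0.0033, and Setdb1 had -0.28 with an adjusted p of 0.677 in the authors' deposited table. The others called higher were the heterochromatin protein gene Cbx3 (1.82), the histone deacetylase gene Hdac1 (1.64), the histone chaperone genes Rbbp7 (1.30) and Rbbp4 (1.03), the methylation reader gene Uhrf1 (0.97) and Mbd3 (0.82). Chd3 (-1.21) and Gatad2b (-1.31), of the same remodelling complex as Mbd3, were called lower. None of the 3 HUSH complex genes in the table was called by the authors' adjusted p, and 1 had an unadjusted p under 0.05. All 7 of the genes called higher except Cbx3 and Hdac1 have log2 fold changes under the shift of 1.49 between totals, so their direction turns with that scale.

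Other zinc finger families were counted beside the 22.3% of all genes called. Their median levels differed, at 3.35 log2 CPM for Zbtb, 3.06 for Zscan and Zkscan and 4.96 for CCCH genes, and differences between families were not tested. Of 35 genes whose symbols begin with Zbtb and a number, 1 was called, Zbtb8os (1.75), which encodes an archease and not a finger protein. Of 14 Zscan and Zkscan genes, 1 was called higher, Zkscan4 (2.70 in the authors' deposited table). None of 13 Klf genes and 4 Ikzf genes was called by the authors' adjusted p, with medians of -0.22 and -1.18 log2 and, at an unadjusted p under 0.05, with 0 and 1 genes. Of 19 CCCH genes, 7 were called higher and none lower, with a median of 0.05. They were Zfp36, its paralogues Zfp36l1 (1.92) and Zfp36l2 (1.14), Zc3h15 (1.33), Zc3h3 (1.15), Zc3h11a (0.92) and Zc3h18 (0.72), of which Zfp36l1 alone exceeds the shift of 1.49.

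Many Zfp genes lie in clusters. In the order of the protein-coding genes of the RefSeq table, with other kinds of gene passed over, the members formed 14 runs of neighbours. These held 32 members in all, with a median log2 fold change of -0.50 in the first comparison. The longest run, of Zfp282, Zfp212, Zfp956, Zfp777 and Zfp746, spanned -1.14 to -0.05, and none of its 5 genes was called. Neighbours did not always have like values: Zfp617 (1.74) lies beside Zfp961 (-0.73, adjusted p 0.253 in the authors' deposited table), another KRAB gene, which shares 0.186% of its words.

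In the second comparison none of the 144 members was called in the authors' deposited table, at an adjusted p under 0.05, and none had an unadjusted p under 0.05, with 0.109% of all genes called. The median log2 fold change was -0.02, against 0.00 over all genes, and the range ran from -0.30 (Zfp868) to 0.37 (Zfp251). Against genes of like level the median difference was -0.01, with quartiles of -0.08 and 0.07. Among members with positive values the smallest p-values belonged to Zfp251 (0.37, p = 0.405), Zfp367 (0.23, p = 0.516), Zfp574 (0.26, p = 0.643), Zfp703 (0.27, p = 0.679) and Zfp553 (0.15, p = 0.691), in the authors' deposited table. Among those with negative values they belonged to Zfp868 (-0.30, p = 0.434), Zfp932 (-0.27, p = 0.445), Zfp692 (-0.20, p = 0.447), Zfp608 (-0.24, p = 0.559) and Zfp414 (-0.14, p = 0.579), in the authors' deposited table. The levels of Zfp251 were 14.0 CPM in the numerator group and 10.8 CPM in the denominator group, and those of Zfp868 were 17.2 CPM and 21.1 CPM in these groups. A missed threshold does not show that the groups were alike, and without values per library no interval can be given. None of the corepressor, HUSH, Zbtb, Zscan, Klf, Ikzf or CCCH genes was called by the authors' adjusted p in this comparison, and 0 had an unadjusted p under 0.05. As both comparisons share their denominator group, the values of a gene in them are not independent.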

How the data were processed

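RNA of sorted bone marrow progenitors was made into 10 libraries with an Illumina TruSeq kit, per the labels' protocols. Bowtie 0.12.2 and the build mm8 are named in the submitters' processing notes, without their roles; which annotation and which counting and testing programs were used is not given there. A single deposited table holds, per the file headers, log fold changes, mean log CPM, p-values and false discovery rates for each of 12791 genes in 2 comparisons. The fold changes and mean CPM deposited by the authors were taken to be log2 values, because group levels worked out in that base match between the comparisons. The adjusted p-values deposited by the authors equal a Benjamini-Hochberg adjustment over the table, within 1.9e-15. Each column was a comparison, and 0 columns of single libraries were left unmapped. Depth per library is unknown, so the planned edgeR test, replicate checks and errors could not be had.

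Group levels were worked out from each gene's mean level and its fold change, using fitted weights of the numerator group of 0.48 and 0.59 in the first and second comparison, on a grid of 0.01. A gene was called at an adjusted p under 0.05. Like-level genes lay within 0.5 log2 CPM of a member. The longest coding sequence per gene of GENCODE M21 (GRCm38) gave fingers, lengths and shared words of 32 bases, and it replaced the planned RefSeq protein. KRAB domains were found with HMMER 3.4 from a profile of 177 seed proteins, at an E-value under 1e-04, and the scripts ran under Python 3.11.15 with pandas 2.3.3 and numpy 2.4.6. The derivation was tested on simulated data made with the same formula. This checks that the weights are recovered and not that the formula holds for the deposited values. Of the table's names, 99.1% were in the RefSeq gene table, which gave neighbours. Named genes are those past the threshold, the 5 smallest p-values each way in the second comparison, the 3 genes at each side of the limit, known-role genes, and partner genes past the threshold with Trim28 and Setdb1; others, such as Zfp81, Zfp609, Zfp961, Chd4, Zfp236 and those named for shared words or neighbours, were chosen after their values were seen. Members and lists were chosen with earlier results of these data known.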

Additional observations from a re-analysis of the deposited data

How the results depend on the processing

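No paired analysis was possible because the table holds no value per library, and leaving out single replicates could not be run for the same reason. Of 66 alternative values, 56 stayed within 1.5 times a count or within 0.1 log2 of a median, and 10 moved. Some could not move. No member was called in the second comparison, so parts of the members, a stricter threshold and recentred scales kept its counts at 0. The bound of 0.1 log2 is also wide beside the members' quartiles there, -0.09 and 0.06. In the first comparison the count of members called higher was 11, against 7 among proteins with at least 2 C2H2 fingers and 5 among members sharing at most 10% of their words (an alternative chosen after seeing the data). The count called lower was 1, against 2 with symbols that end in a letter, 0 at an adjusted p under 0.01 and 17 at an unadjusted p under 0.05. With equal totals, 2 of the 12 called members lay above 0 and 10 below; this recounts signs after a fixed shift, was not tested again on that scale and is no count of calls. The members' median log2 fold change of -0.45 came to -0.22 at a limit of 4 log2 CPM, -0.32 when recentred on the median of all genes and -1.94 with equal totals. The construction of the equal-totals scale lowers every fold change of the first comparison by 1.49 log2; for the other alternatives the cause was not tested. The median set against genes of like level, and the results of the second comparison, stayed within these bounds under every alternative run. Precision is limited by the number of libraries and by a depth that is unknown.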
